A study of Homo sapiens and Mus musculus with 92 samples.

Results

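Polycomb subunits were followed in RNA-seq of HEL cells, an established human erythroleukemia line, after knockdown (KD) of MLL1 or of AF9. The members were the 10 genes EZH1, EZH2, SUZ12, EED, BMI1, RING1, RNF2, CBX2, CBX8 and BCOR, taken by gene symbol from both count tables, and all 10 are among the 28103 genes of each table. Controls and knockdowns were sequenced in pairs of groups: MLL1 KD with 3 libraries against 3 controls, and AF9 KD with 2 libraries against 2 separate controls. All cells were HEL cells. The labels give the control cells as WT, and the study's methods name a pLKO.1 TRC control shRNA, with lentiviral delivery for every arm. Each KD arm in RNA-seq stands for 1 shRNA, so an effect of the targeted gene and an effect of that shRNA cannot be told apart. Nothing in the sources used here says that replicates came from separate cultures, so the p values measure the spread between these libraries.

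Polycomb proteins keep developmental genes silent and act against the MLL1 family, which keeps them active. In Polycomb repressive complex 2 (PRC2), EZH2 or its paralog EZH1 methylates histone H3 at lysine 27, and SUZ12 and EED are needed for this activity. In Polycomb repressive complex 1 (PRC1), RING1 or RNF2 ubiquitinates histone H2A, PCGF proteins such as BMI1 pair with them, and CBX proteins such as CBX2 and CBX8 read the methyl mark. CBX8 and BCOR, the latter a subunit of a variant PRC1, also bind the C-terminal domain of AF9, through which AF9 otherwise contacts the elongation factors AFF1 and AFF4 and the histone methyltransferase DOT1L.

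Library totals ranged from 6966345 to 10380241 counts in the MLL1 experiment and from 12278989 to 14232408 counts in the AF9 experiment. Replicate 1 of both MLL1 groups stood apart, with chi-square values of 31.6 to 60.3 for each degree of freedom against replicates 2 and 3 of the same group, where replicates 2 and 3 differed from each other by 2.40 and 2.69. Results from the MLL1 experiment are therefore also given with the replicate number as a block and with replicates 2 and 3 alone. In the AF9 experiment the same chi-square value was 4.14 between the controls and 9.95 between the AF9 KD libraries. All 8 erythroid marker genes were expressed at a mean TPM of at least 1 in both experiments, and T cell and B cell markers summed to at most 0.431 and 1.14 CPM (counts relative to the TMM-scaled size of the library) in any library. Fibroblast markers summed to at most 2.16 CPM in control libraries and at most 14.8 CPM in MLL1 KD libraries, and their part in the results was not tested.

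The targeted genes were lower in the cells labelled as knockdowns. KMT2A, which encodes MLL1, fell to 63.5% of control in MLL1 KD cells (log2 fold change -0.66, standard error 0.09, n = 3 and 3), where its adjusted p value was 0.0721 by edgeR's quasi-likelihood test and 2.25e-07 with the replicate block. MLLT3, which encodes AF9, fell to 18.6% of control in AF9 KD cells (log2 fold change -2.43, standard error 0.11, adjusted p = 3.17e-08, n = 2 and 2). Each gene was also somewhat lower in the other knockdown. KMT2A stood at 80.1% of control in AF9 KD cells (log2 fold change -0.32, adjusted p = 0.0200). With offsets that remove each library's trend with the GC content of genes, this was -0.21 (adjusted p = 0.0661). MLLT3 stood at 82.1% in MLL1 KD cells (-0.28, adjusted p = 0.614, and 0.0170 with the replicate block). At the protein level the study's Western blots showed no effect of AF9 KD on MLL1 or of MLL1 KD on AF9. Calls within an experiment needed a 1.5-fold or larger difference together with an adjusted p value below 0.05. The test of a difference between the knockdowns used the adjusted p value alone.

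**Figure D1:**
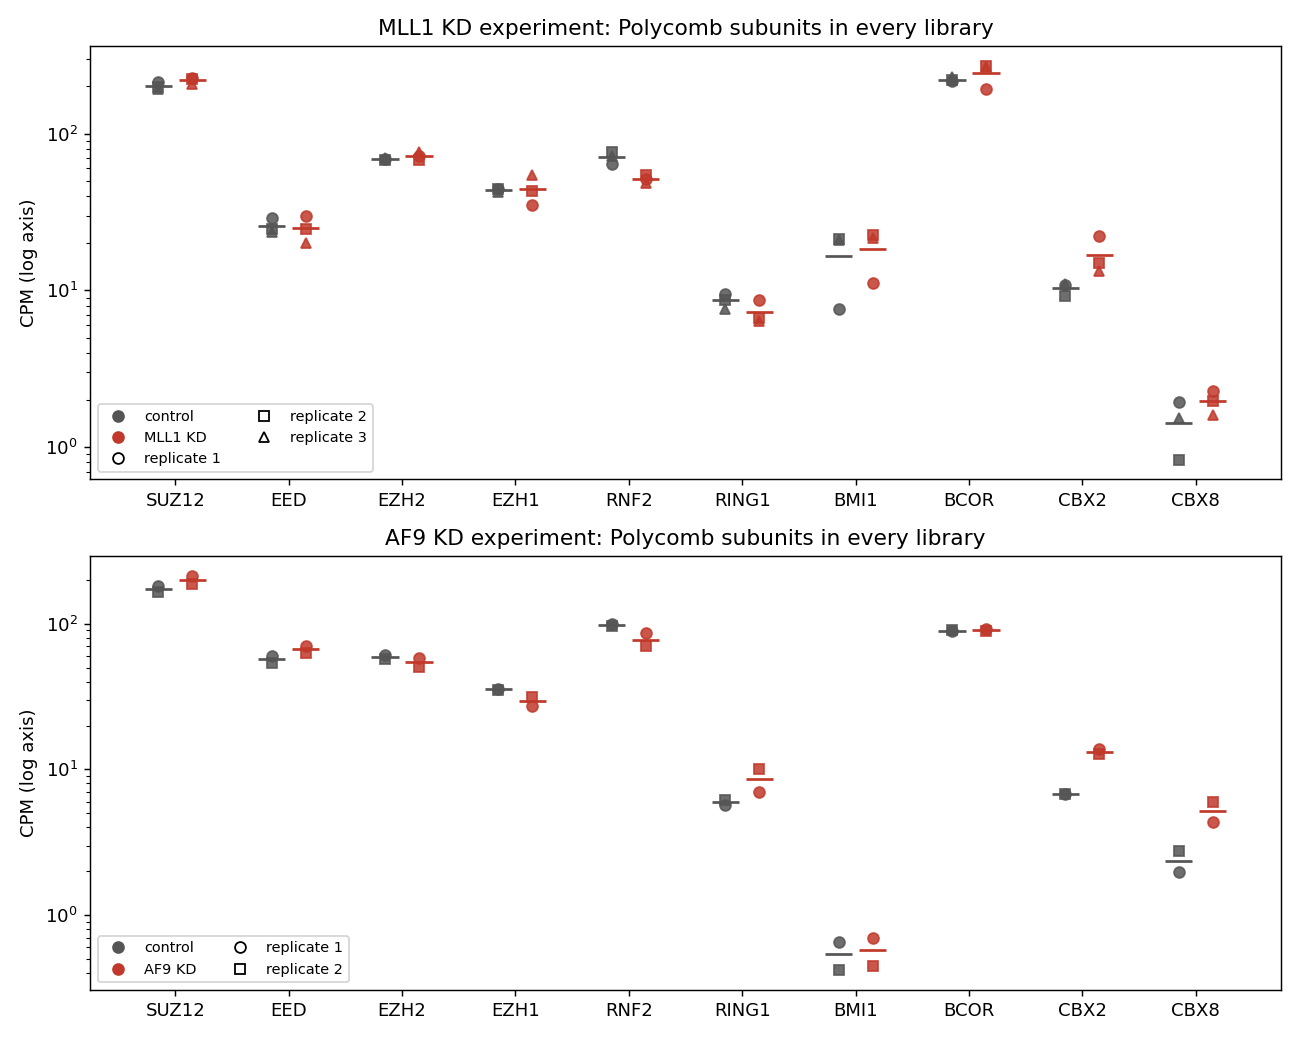
CPM on a log axis for each of the 10 Polycomb genes in every library, with control libraries in grey, KD libraries in red, symbols for replicates and lines for group means. CBX2 and CBX8 lie higher in both AF9 KD libraries than in both control libraries. BMI1 lies at 7.61 to 22.6 CPM in the MLL1 experiment and at 0.42 to 0.70 CPM in the AF9 experiment. How reads were assigned to BMI1 was not tested, so these levels are not compared.

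Transcripts of the complexes were unequally abundant in control cells. On the TPM scale, which divides by the length of the merged exons, SUZ12 had the highest mean in both sets of controls, with 112.9 to 129.6 TPM in the MLL1 experiment and 107 to 119.1 TPM in the AF9 experiment. CBX8 was lowest in the MLL1 controls with 1.35 TPM and next to lowest in the AF9 controls with 2.44 TPM, so that the CBX subunit known to bind AF9 was a rare transcript. In the MLL1 controls the order from SUZ12 ran over BCOR, RNF2, EZH2, EZH1, RING1, BMI1, EED and CBX2 to CBX8, and the ranges of EZH2 and EZH1, of RING1 and BMI1, and of BMI1 and EED overlapped. In the AF9 controls the order was SUZ12, RNF2, BCOR, EED, EZH2, EZH1, RING1, CBX2, CBX8 and BMI1, where the ranges of SUZ12 and RNF2 overlapped. How reads were assigned to BMI1 was not tested, so its places in the orders are not compared. The length used sets part of this order. With the length of the canonical transcript EZH2 had 62.3 TPM in place of 24.7 in the MLL1 controls, and EED had 29.5 TPM in place of 14.2.

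The core of PRC2 passed no test in the MLL1 experiment. SUZ12 stood at 213, 198 and 193 CPM in the controls, listed here and below from replicate 1 to 3, and at 225, 222 and 208 CPM after MLL1 KD. These groups overlapped, and the log2 fold change was 0.12 with a 95% interval from -0.13 to 0.36 (adjusted p = 0.799). EZH2 had 69.2, 67.5 and 70.2 CPM in control cells and 71.6, 67.4 and 76.4 CPM in MLL1 KD cells. The interval of its log2 fold change ran from -0.21 to 0.33 (adjusted p = 0.935), which excludes a 1.5-fold change in either direction. EZH1 had 44.1, 44.1 and 42.2 CPM against 35.0, 43.0 and 54.1 CPM, and EED had 28.7, 24.7 and 23.6 CPM against 30.0, 24.6 and 19.9 CPM. Both spread more widely in MLL1 KD cells, with log2 fold changes of 0.02 (interval -0.40 to 0.44) and -0.05 (interval -0.50 to 0.41).

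In AF9 KD cells the PRC2 core was not called either, and its subunits leaned in different directions. SUZ12 had 182 and 166 CPM in control cells and 213 and 187 CPM in AF9 KD cells (log2 fold change 0.20, interval -0.01 to 0.41, adjusted p = 0.149). EED had 60.0 and 53.7 CPM against 70.7 and 62.8 CPM (log2 fold change 0.23, adjusted p = 0.127). For both genes the AF9 KD libraries lay above the control libraries. With offsets that remove the trend of each library with the GC content of genes (GC offsets), their log2 fold changes were 0.39 and 0.45 with adjusted p values of 0.00329 and 0.00246, still under a fold change of 1.5. EZH2 had 61.1 and 57.0 CPM against 57.8 and 50.6 CPM (log2 fold change -0.12, adjusted p = 0.426), and the groups overlapped. EZH1 had 35.8 and 35.1 CPM against 27.1 and 31.5 CPM (log2 fold change -0.28, adjusted p = 0.112).

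The balance of the alternative methyltransferases did not pass a test. EZH1 made up 49.5%, 50.2% and 48.1% of the summed TPM of EZH1 and EZH2 in the MLL1 controls and 43.0%, 49.6% and 52.2% in MLL1 KD cells (means 49.3 ± 1.08 and 48.3 ± 4.75, SD, n = 3 each, two-sided exact permutation test, p = 0.9). For AF9 the share was 47.5% and 48.7% in the controls against 41.9% and 48.9% after KD (exact permutation p = 1). The smallest p that these designs allow is 0.1 for 3 against 3 libraries and 0.333 for 2 against 2. After adjustment over the 2 tests of this share both exact permutation p values were 1. With the length of the canonical transcript the same share was 26.5% in the MLL1 controls, since the merged exons of EZH2 hold 10774 bases and its canonical transcript 2654.

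RNF2, which encodes the RING1B ubiquitin ligase of PRC1, was the member that lay lower in the KD libraries of both experiments. It was picked out of the members by its values, and the share of all genes that lie lower in both was not computed. In the MLL1 experiment it had 63.7, 76.6 and 72.3 CPM in control cells and 51.7, 54.1 and 48.7 CPM in MLL1 KD cells. The groups did not overlap, and the log2 fold change was -0.46 (standard error 0.13, interval -0.77 to -0.16), with an adjusted p value of 0.287. With the replicate block the adjusted p value was 0.00483, and with replicates 2 and 3 alone the log2 fold change was -0.54 with an adjusted p value of 1.08e-05. With AF9 KD, RNF2 had 99.1 and 96.0 CPM in control cells and 85.7 and 69.9 CPM in AF9 KD cells (log2 fold change -0.33, standard error 0.11, adjusted p = 0.0369). It stayed under the fold change of 1.5 in each of these fits and was therefore not called. In AF9 KD cells 14.6% of all tested genes fell and 14.4% rose at an adjusted p value under 0.05 alone. With GC offsets the adjusted p value of RNF2 in AF9 KD cells was 0.263 (log2 fold change -0.14), and with DESeq2 it was 0.0695.

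RING1, the paralog of RNF2, did not pass the test. It had 9.54, 8.75 and 7.63 CPM in the MLL1 controls and 8.75, 6.65 and 6.36 CPM in MLL1 KD cells (log2 fold change -0.25, adjusted p = 0.806). In the AF9 experiment it had 5.73 and 6.12 CPM in control cells against 6.96 and 10.1 CPM in AF9 KD cells (log2 fold change 0.53, standard error 0.22, adjusted p = 0.0912). The AF9 KD libraries lay above the controls but apart from each other. Without AF9 KD replicate 1 the log2 fold change was 0.77 and RING1 was called (adjusted p = 0.00984), whereas with GC offsets it was 0.08.

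BMI1, a PCGF subunit of canonical PRC1, followed the replicate rather than the knockdown. In the MLL1 experiment it had 7.61 CPM in control replicate 1 and 11.1 CPM in MLL1 KD replicate 1, but 21.4, 21.0, 22.6 and 21.4 CPM in the other libraries (log2 fold change 0.14, interval -0.85 to 1.13). In the AF9 experiment it had 9 and 5 counts in the controls against 9 and 6 after AF9 KD, below the mean TPM of 1 required for testing. The gene COMMD3 lies beside BMI1 and shares the readthrough gene COMMD3-BMI1 with it, and that gene had a count of 0 in every library of both tables. COMMD3 moved the other way between the tables, with 5.97 to 8.51 CPM in the MLL1 controls and 41.2 to 43.0 CPM in the AF9 controls. Of the exon bases of BMI1 22.8% are shared on the same strand with COMMD3-BMI1, and how reads were divided between these genes in each table was not tested. The level of BMI1 is therefore not compared between the experiments.

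CBX2 and CBX8, neighbouring genes that encode methyl-lysine readers of PRC1, rose in AF9 KD cells. CBX2 had 6.75 and 6.79 CPM in control cells and 13.8 and 12.7 CPM in AF9 KD cells. This is 195% of control, with a log2 fold change of 0.97 (standard error 0.18, interval 0.59 to 1.34, adjusted p = 0.00144). CBX8 had 27 and 33 counts in the controls against 56 and 80 counts after AF9 KD, or 1.96 and 2.77 CPM against 4.33 and 5.98 CPM. Its log2 fold change was 1.14 (standard error 0.29, interval 0.51 to 1.76, adjusted p = 0.0103). These 2 genes were the members called among the 9 tested in AF9 KD cells, both upward, and none was called downward. Over all 13333 genes tested, 8.02% were called upward and 5.06% downward. These shares do not allow for GC content, which is high in CBX2 and CBX8 and with which fold changes rose in AF9 KD cells. For tested genes in the bin centred on 59% GC, the upper quartile of the log2 fold change was 0.59. The call of CBX8 rests on few counts and was lost without control replicate 1 (log2 fold change 0.90, adjusted p = 0.133).

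In MLL1 KD cells CBX2 pointed the same way. It had 10.8, 9.16 and 11.1 CPM in control cells and 22.4, 14.9 and 13.3 CPM in MLL1 KD cells, without overlap (log2 fold change 0.70, standard error 0.24, interval 0.13 to 1.27, adjusted p = 0.377). With the replicate block CBX2 was called (adjusted p = 0.0208), as 1 of the 10 members. That fit called 2.22% of all genes upward and 2.53% downward, and at the adjusted p value alone 6.63% upward and 6.99% downward. With replicates 2 and 3 alone the log2 fold change of CBX2 was 0.47 (adjusted p = 0.102). CBX8 had only 15, 6 and 12 counts in the controls against 23, 14 and 15 counts after MLL1 KD. Its groups overlapped, and the interval of its log2 fold change ran from -0.57 to 1.47, which holds both 0 and the value seen in AF9 KD cells, so that a difference was not detectable at this depth. Without the block edgeR called no member in either direction, 2 members (RNF2 and CBX2) had an unadjusted p value under 0.05, and DESeq2 called 0. The background was 0.0347% of all 14394 genes upward and 0.0347% downward.

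**Figure D2:**
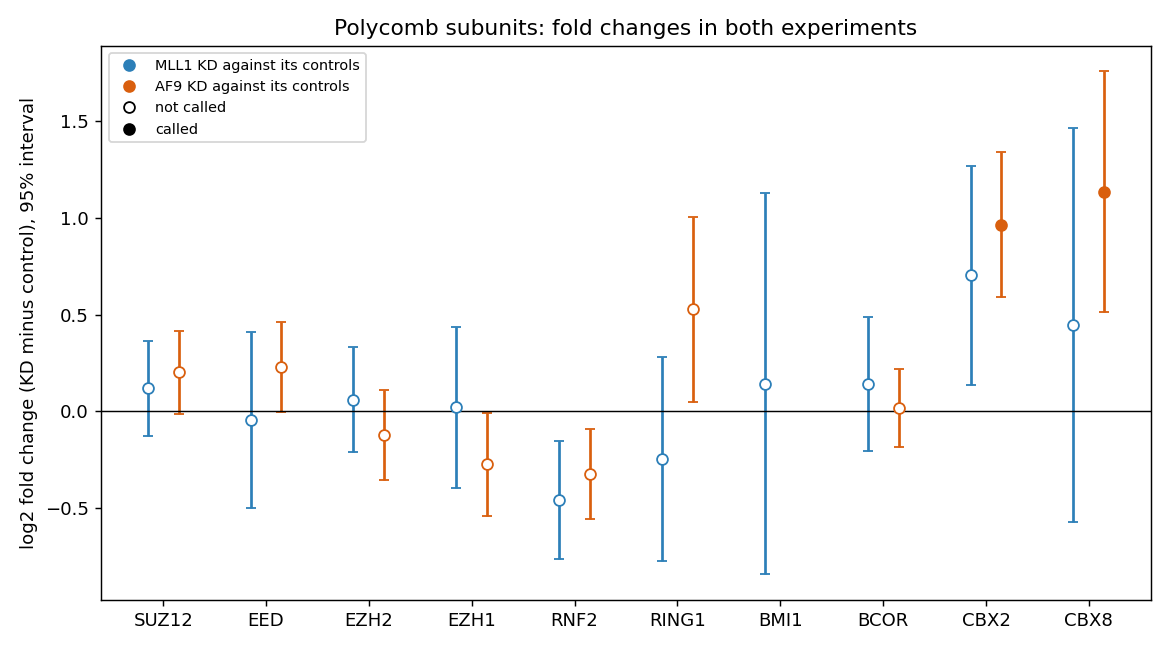
Log2 fold change of each Polycomb gene in MLL1 KD (blue) and AF9 KD (orange) against the controls of the same experiment, with 95% intervals and filled symbols for called genes. CBX2 at 0.97 and CBX8 at 1.14 are the filled symbols, both in AF9 KD, and RNF2 lies below 0 in both experiments.

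CBX2 and CBX8 lie on chromosome 17 of hg38. CBX2 spans 79778148 to 79787983 on the plus strand, CBX8 spans 79792132 to 79801683 on the minus strand, and the gap between them is 4148 bases. CBX6, on chromosome 22, rose from 31.3 ± 1.82 to 56.0 ± 1.73 CPM (SD, n = 2 each) in AF9 KD cells (log2 fold change 0.84, standard error 0.11, adjusted p = 0.000206). It was not called with GC offsets, where its log2 fold change was 0.56 (adjusted p = 0.00119). CBX7 had log2 fold changes of 0.06 in AF9 KD cells and 0.09 in MLL1 KD cells, with wide intervals.

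**Figure D3:**
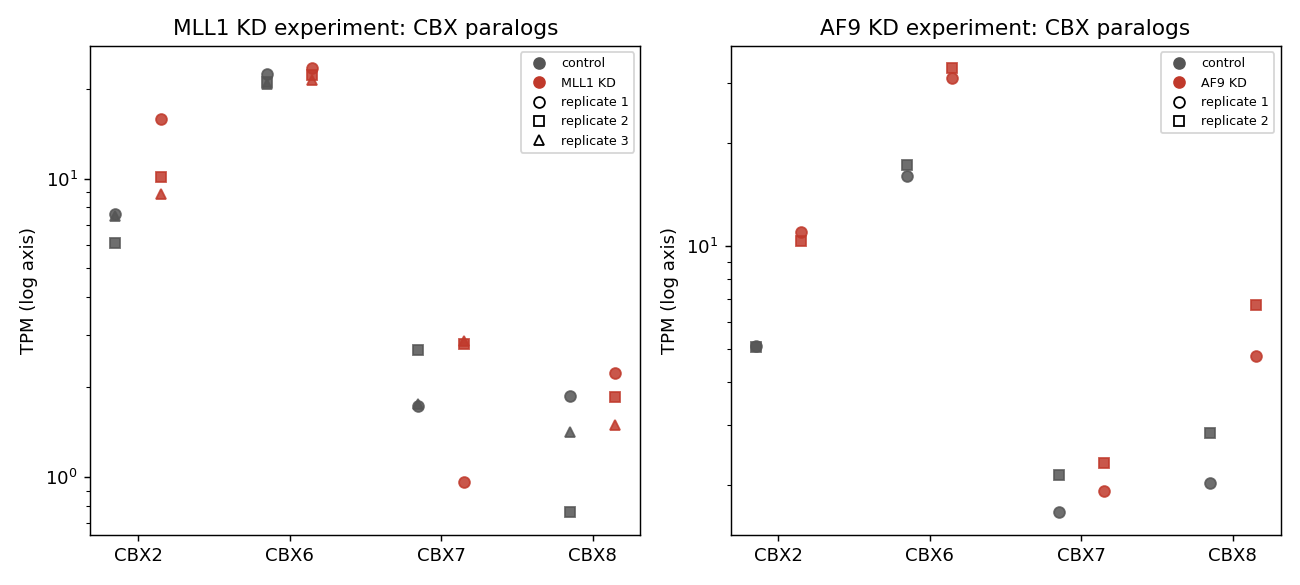
TPM on a log axis of CBX2, CBX6, CBX7 and CBX8, paralogs that can fill the reader position of canonical PRC1, by library, with control in grey and KD in red. In the AF9 experiment CBX2, CBX6 and CBX8 lie higher in both KD libraries than in both controls, and CBX7 overlaps.

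BCOR, on the X chromosome and the partner of AF9 outside the CBX family, was close to its control level in AF9 KD cells. It had 89.3 and 90.0 CPM in control cells and 92.2 and 88.9 CPM in AF9 KD cells. The interval of its log2 fold change ran from -0.19 to 0.22 and excluded a change of 1.5-fold in either direction. In the MLL1 experiment BCOR had 216, 218 and 228 CPM in control cells and 193, 271 and 265 CPM in MLL1 KD cells, with replicate 1 on the other side of the controls from replicates 2 and 3 (log2 fold change 0.14, adjusted p = 0.847). With replicates 2 and 3 alone the log2 fold change was 0.26 with an adjusted p value of 0.000143. In that fit BCOR rose and RNF2 fell among the members, against 9.32% of all genes upward and 9.05% downward at the adjusted p value alone. Neither passed the fold change of 1.5, with which that fit called 2.52% of all genes upward and 2.34% downward. Of the competing partners of AF9, DOT1L, AFF1 and AFF4, none was called in either experiment. Their log2 fold changes in AF9 KD cells were 0.31, -0.25 and -0.12 (adjusted p = 0.0908, 0.0616 and 0.352). With GC offsets they were -0.21, -0.17 and 0.03 (adjusted p = 0.0782, 0.126 and 0.78), so that DOT1L and AFF4 changed sign.

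Whether the response to the knockdowns differed was tested in 1 fit over all 10 libraries. No member's log2 fold change differed between MLL1 KD and AF9 KD cells at an adjusted p value under 0.05 in edgeR's quasi-likelihood test. That test called 1.35% of the 12731 genes tested. The count of members was 0 with DESeq2 as well. At an unadjusted level the interval of RING1 alone excluded 0, with a difference (MLL1 minus AF9) of -0.75 (interval -1.50 to -0.0015, adjusted p = 0.288). The difference was -0.66 for CBX8 (interval -1.84 to 0.52), -0.25 for CBX2 (interval -0.99 to 0.50) and -0.12 for RNF2 (interval -0.54 to 0.31). These intervals are too wide to say that the knockdowns acted alike on CBX2 and CBX8.

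Fold changes in AF9 KD cells moved with the GC content of the genes. Over the 13045 tested genes with a GC content, Spearman's rho with the log2 fold change was 0.48, a description across genes of 1 comparison, and in MLL1 KD cells it was -0.07. CBX2 and CBX8 are GC rich, with 60.0% and 58.0% GC in their exons, and RNF2, SUZ12 and EED are GC poor, with 38.0%, 38.4% and 36.4%. With offsets from each library's trend with GC content CBX2 and CBX8 were still called in AF9 KD cells, with log2 fold changes of 0.60 and 0.86 (adjusted p = 0.0226 and 0.029), against 3.75% of all genes upward and 4.23% downward. CBX2 passed the fold change of 1.5 only narrowly in that fit. CBX6 fell narrowly short of it, with 0.56 and a smaller adjusted p value (0.00119), so the calls do not separate these 2 genes.

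**Figure D4:**
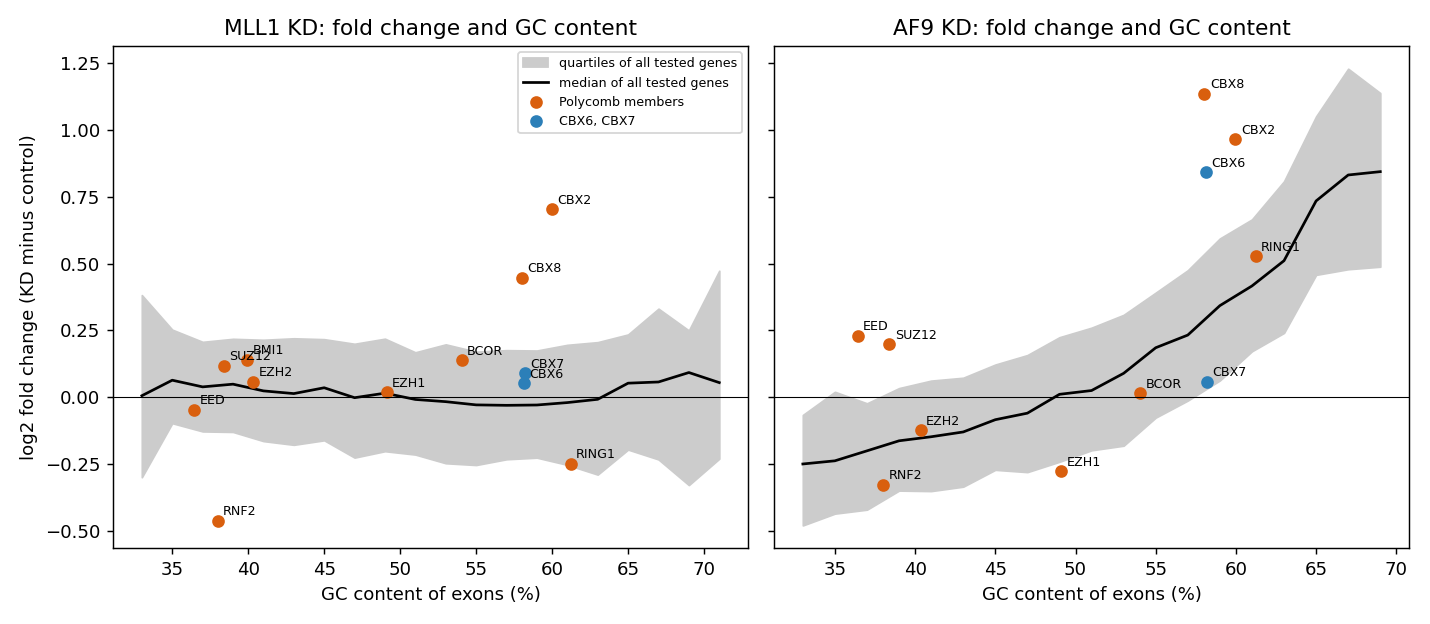
Log2 fold change against exon GC content (percent) in each experiment, with the median and quartiles of all tested genes in bins of GC content and points for the Polycomb genes (orange) and for CBX6 and CBX7 (blue). In AF9 KD the median rises with GC content. CBX8, CBX2, CBX6, SUZ12 and EED lie above the upper quartile at their GC content, and EZH1 lies below the lower quartile.

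Genes whose centred log2 CPM followed CBX8 most closely over the 10 libraries were AP4M1, BABAM1, ARL2, NTHL1 and PAXX, with Pearson's r from 0.950 to 0.968. These are a description chosen out of 12731 genes, and the 5 genes share high GC content (55.9% to 65.0%) and the libraries with CBX8.

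Over 5 lists of other Polycomb genes the share of called genes lay near that of all genes. In MLL1 KD cells none of 9 tested PRC2 accessory genes, 7 other canonical PRC1 genes, 17 variant PRC1 genes, 7 genes of the deubiquitinating complex PR-DUB and 2 H3K27 demethylases was called in either direction, by edgeR, where 1 of them (JARID2) had an unadjusted p value under 0.05, and 0 were called by DESeq2, with the replicate block or with replicates 2 and 3 alone. The smallest adjusted p value of each list was that of JARID2 (0.481), PCGF2 (0.576), RYBP (0.534), ASXL1 (0.597) and KDM6B (0.754). Their median log2 fold changes lay between 0.00 and 0.18, and that of all genes was 0.01. In AF9 KD cells 3 of 43 other Polycomb genes rose (6.98%) and 2 fell (4.65%), beside 8.02% and 5.06% of all genes tested. Of these, 1 of 8 other canonical PRC1 genes rose, which was CBX6, and 1 fell. The latter was PHC3, a polyhomeotic subunit that joins PRC1 complexes (log2 fold change -0.67, adjusted p = 0.000448). Of 17 variant PRC1 genes 2 rose and 1 fell. The rises were FBRSL1 (log2 fold change 0.84, adjusted p = 0.00211) and TFDP1, the dimerization partner of E2F factors (0.71, adjusted p = 0.000297). The fall was YAF2 (-0.585, adjusted p = 0.00215), which barely reached the fold change of 1.5. Of these 5 calls only that of TFDP1 was kept with GC offsets (log2 fold change 0.70). Those offsets gave log2 fold changes of 0.56 for CBX6, -0.45 for PHC3, -0.37 for YAF2 and 0.00 for FBRSL1, and YAF2 was also not called by DESeq2 or with the replicate block. Without GC offsets no PRC2 accessory gene, PR-DUB gene or H3K27 demethylase was called by edgeR, although 4, 3 and 1 of them had an unadjusted p value under 0.05, and DESeq2 called 0. With GC offsets 2 of these genes were called, both downward, beside 4.23% of all genes. They were PHF1, a PRC2 accessory gene (log2 fold change -0.34 without and -0.68 with GC offsets, adjusted p = 0.142 and 0.00226), and KDM6B, an H3K27 demethylase (-0.30 and -0.77, adjusted p = 0.0943 and 0.000352). JARID2, which helps to bring PRC2 to chromatin, had a log2 fold change of -0.50 (adjusted p = 0.00164) and BAP1, the deubiquitinase, one of 0.39 (adjusted p = 0.00783), both under the fold change of 1.5. With GC offsets JARID2 had -0.52 (adjusted p = 0.000673) and BAP1 had 0.11 (adjusted p = 0.313).

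Genes that Polycomb classically silences, mainly developmental genes together with cell cycle inhibitor genes, were mostly at or near 0 counts in control and KD cells alike. Of 19 such genes 14 had at most 3 counts in every library of the MLL1 experiment and 15 in every library of the AF9 experiment. Only OLIG2 and PAX6 passed the filter on mean TPM in each experiment, and neither was called over all libraries (OLIG2 in MLL1 KD cells, log2 fold change -0.58, adjusted p = 0.481, and PAX6 in AF9 KD cells, -0.11, adjusted p = 0.626). With replicates 2 and 3 alone OLIG2 was called downward in MLL1 KD cells (log2 fold change -0.80, adjusted p = 0.00257), beside 2.34% of all genes, and with the replicate block it was not (-0.56, adjusted p = 0.0893).

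Some proliferation and erythroid genes fell beside these values in AF9 KD cells, while others of the same lists lay higher. Of 8 proliferation genes 2 were called, both downward, namely CDK1 (log2 fold change -0.79) and BUB1 (-0.63), beside 5.06% of all genes. The log2 fold changes of E2F1, PCNA and MCM2 were above 0, at 0.46, 0.27 and 0.23 (adjusted p = 0.00496, 0.0576 and 0.078). The summed CPM of the list, in which TOP2A has the largest part, was 4312 to 4565 in control cells and 3251 to 3666 in AF9 KD cells. Of 8 erythroid genes 2 were called, both downward, the fetal globin genes HBG1 and HBG2, which are nearly identical and can share reads (log2 fold change -0.60 for each). GATA1, KLF1 and EPOR had log2 fold changes of 0.27, 0.32 and 0.43 (adjusted p = 0.0616, 0.0189 and 0.0415), under the fold change of 1.5. The summed CPM of the list was 9377 to 9508 in control cells and 6121 to 7216 in AF9 KD cells, and HBG1 and HBG2 made up most of it, with means of 3113 and 4846 CPM in control cells. With GC offsets HBG2 alone of these 4 calls was kept. Those offsets gave log2 fold changes of -0.36 for KLF1 (adjusted p = 0.028), -0.13 for GATA1 and 0.06 for EPOR. For E2F1, PCNA and MCM2 they gave -0.0069, 0.36 and 0.04. In MLL1 KD cells no gene of either list was called over all libraries without the block, with BUB1 (adjusted p = 0.283) and HBG2 (0.376) nearest. HBG2 was called downward with the block (log2 fold change -0.72, adjusted p = 1.89e-06) and with replicates 2 and 3 alone (-0.75, adjusted p = 2.45e-20), and no other gene of these lists was called in those fits. The part of these shifts in the results on Polycomb genes was not tested.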

How the data were processed

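The authors filtered reads with fastp version 0.13.1, mapped them to hg38 with HISAT2 version 2.1.0 for stranded libraries, and obtained gene counts from featureCounts version 1.6.1, as the submitters' processing notes and the study's methods state. They deposited raw counts per gene symbol, without normalization. CUT&Tag and PRO-seq samples were not analysed here. Symbols were joined to GENCODE v44, where 2150 (7.65%) had no match. Testing covered genes whose mean TPM over an experiment reached 1 (mean CPM where no length was known). It was done with edgeR version 4.0.16 (TMM factors, quasi-likelihood test, Benjamini-Hochberg adjustment over all genes tested) in R version 4.3.3. DESeq2 version 1.42.0 was an alternative. Standard errors were derived from the F statistics, and the scripts were tested on simulated data. Deviations from group means of the MLL1 experiment correlated between equal replicate numbers at 0.648, 0.326 and 0.352. Replicates 2 and 3 correlated as well across numbers (0.360 and 0.369). The values thus set replicate 1 of both groups apart but do not pair replicates 2 and 3 by number. The replicate block took the numbers as labelled.

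Named genes were the 10 members, KMT2A, MLLT3, DOT1L, AFF1, AFF4, the called genes of each other list (at most 6, largest log2 fold change first) or the gene with the smallest adjusted p value, and the 5 genes most correlated with CBX8. CBX7, COMMD3, PHF1, TOP2A, E2F1, PCNA, MCM2, GATA1, KLF1 and EPOR were named after their values were seen. The members, gene lists and tests were chosen with earlier results of these data known. Alternatives were other tests, scalings, filters, fold thresholds, GC offsets (lowess span 0.3), the replicate block and left-out libraries. Replicates 2 and 3 alone and the canonical transcript length were added after seeing the data. A planned comparison and the gene it needs are not reported here.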

Additional observations from a re-analysis of the deposited data

How the results depend on the processing

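Of the counts of called members, that in MLL1 KD cells went from 0 to 1 (CBX2) with the replicate block and to 1 with the block and GC offsets together, and was 0 under every other alternative tried, each left-out library and replicates 2 and 3 alone included. In AF9 KD cells 2 members were called, and 1 with a mean TPM of at least 5, where CBX8 is not tested, and 1 (CBX8) at a fold change of at least 2. With libraries left out the count ranged from 1 (without control replicate 1, where CBX8 was lost) to 3 (without AF9 KD replicate 1, where RING1 was added), and the cause was not tested. In the AF9 experiment equal replicate numbers correlated at 0.156 and unequal ones at -0.156. With 2 libraries in each group these values mirror each other by construction, so they cannot show whether the numbers mark a shared origin. The replicate block left 2 members called there. The count of members with a difference between knockdowns was 0 under every alternative tried, the block included.

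Small values changed sign. EZH2 in AF9 KD cells had a log2 fold change of 0.035 with GC offsets and 0.036 with GC offsets and the block. BCOR in AF9 KD cells had -0.0021 without a filter, -0.10 with GC offsets and -0.10 with GC offsets and the block. The CBX2 difference between knockdowns was 0.13 with GC offsets. With libraries left out in MLL1 KD cells, EZH1 ranged from -0.16 to 0.16, EED from -0.21 to 0.088 and BMI1 from -0.21 to 0.41, and in AF9 KD cells BCOR ranged from -0.0099 to 0.046. The differences between knockdowns ranged from -0.17 to 0.033 for SUZ12 and from -0.27 to 0.038 for RNF2. The difference in the EZH1 share (percentage points) ranged from -2.996 to 1.61 in MLL1 KD and from -6.15 to 0.853 in AF9 KD. Depth limits CBX8, with 6 to 23 counts in each library of the MLL1 experiment.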
